A study of Mus musculus with 48 samples.

Results

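Phosphatidylcholine is the main phospholipid of cell membranes, of bile and of lipoprotein surfaces, and 10 genes of its synthesis and of the lipin step that feeds it were followed here: Chka, Chkb, Pcyt1a, Pcyt2, Chpt1, Cept1, Pemt, Lpin1, Lpin2 and Lpin3. They were chosen by name, as the enzymes of the route, out of 20718 measured genes, with earlier results of these data known. The 10 symbols matched 11 transcript clusters (the probe groups that the array summarises), because Chkb had 2, and for Chkb the brighter cluster was used.

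In the CDP-choline route, choline kinase makes phosphocholine, a CTP-dependent transferase turns it into CDP-choline, and a phosphotransferase joins that to diacylglycerol. A parallel route does the same with ethanolamine, and in hepatocytes the methyltransferase encoded by Pemt also makes phosphatidylcholine by methylating phosphatidylethanolamine. Lipins are the phosphatidate phosphatases that supply diacylglycerol, both for phospholipids and for triglyceride, and lipin 1 also acts in the nucleus as a transcriptional coregulator.

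Liver RNA, and RNA of a gut sample labelled "Gut (DI)", had been hybridised to 48 expression arrays, 24 per tissue. The recipients were male C57BL/6J mice on a 12 hr light and 12 hr dark cycle, fed a normal diet, that had received a faecal transplant. Its donors had eaten a high-fat diet, called HF here, a ketogenic diet (KD here) or the normal chow, NC. Tissue was taken at zeitgeber time ZT12 or ZT0, the hours of lights off and lights on, and 4 arrays covered each of the 12 combinations of tissue, donor diet and time. All groups share the transplant, so none is an untreated control. The labels' protocols mention both germ-free mice and antibiotics, and do not say which recipients had either. Each array has a number in its title, given here as its replicate. Nothing but the titles says that arrays of a group come from separate animals, so the p-values measure the spread between arrays, which may be technical.

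A level below is log2(intensity + 16) after quantile normalisation within the tissue, and a difference is in log2 units, with its standard error (SE) from limma. A gene passed the test when its p-value, adjusted by Benjamini-Hochberg over all 20718 genes, was below 0.05. In whole tissue, fewer cells of a type and less RNA per cell cannot be told apart. The time labels were checked on clock genes: Dbp, a clock output factor, was higher at ZT12 by 4.30 in liver and by 3.45 in gut, and Arntl, which encodes the clock factor BMAL1, was lower by -3.22 in liver and by -2.30 in gut. The clock genes Per3 and Nr1d1 were higher at ZT12, Per3 by 3.09 in liver and 2.30 in gut, and Nr1d1 by 0.49 in liver and 2.45 in gut. Nr1d1 in liver is the weakest of these checks, as its times overlapped (9.57 to 10.48 at ZT12, 8.80 to 10.29 at ZT0). The summed intensity of 6 hepatocyte markers was 57322 to 72493 in liver and 13369 to 20843 in gut, and that of 8 enterocyte markers was 4692 to 9524 in liver and 38256 to 55969 in gut. Small intestine also expresses some genes of the hepatocyte list, such as Apoa1 and Cps1.

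In each tissue 1 array stood apart. Liver KD ZT0 replicate 7 had a hepatocyte marker sum of 57322, against 63639 to 68304 on the other 11 ZT0 liver arrays. Its cholangiocyte marker sum was 2584, against 806 to 1649 on the others, and it had the highest Lpin1 and Lpin2 levels and the lowest Chkb, Pcyt1a, Chpt1 and Pemt levels of the 12. Gut NC ZT0 replicate 4 had the lowest Chka, Chkb, Pcyt1a and Lpin2 levels and the highest Lpin1 and Chpt1 levels of the ZT0 gut arrays. Several differences to which these arrays contribute are given with and without them.

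The promoters of Chka and Lpin1 are shown because these genes had the widest differences between the times, that of Cept1 because it also passed with every donor diet, and that of Lpin2 for the E-box, the element bound by BMAL1 and its partner CLOCK, that it holds near the start site. The sequences are RefSeq's, on build GRCm38.p6, and run 5′ to 3′ over 250 bases before and 50 after the start site. Capitals mark the E-box CACGTG in Lpin2 and, in Cept1, AACGTG, which reads CACGTT, an E-box variant, on the other strand.
Chka, chr19:3851523-3851822, plus strand: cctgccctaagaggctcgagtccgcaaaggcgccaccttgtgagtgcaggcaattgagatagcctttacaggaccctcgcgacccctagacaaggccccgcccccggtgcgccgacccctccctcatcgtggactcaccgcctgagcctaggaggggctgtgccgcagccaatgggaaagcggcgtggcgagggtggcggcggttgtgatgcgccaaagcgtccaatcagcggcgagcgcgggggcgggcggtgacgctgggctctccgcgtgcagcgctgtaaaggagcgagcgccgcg
Lpin1, chr12:16610917-16611216, minus strand: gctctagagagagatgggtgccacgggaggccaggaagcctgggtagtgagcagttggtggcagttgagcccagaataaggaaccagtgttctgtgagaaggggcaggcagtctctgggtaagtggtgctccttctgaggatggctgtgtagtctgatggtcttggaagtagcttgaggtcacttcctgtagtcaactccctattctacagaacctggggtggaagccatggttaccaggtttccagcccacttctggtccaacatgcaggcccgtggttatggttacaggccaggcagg
Cept1, chr3:106547576-106547875, minus strand: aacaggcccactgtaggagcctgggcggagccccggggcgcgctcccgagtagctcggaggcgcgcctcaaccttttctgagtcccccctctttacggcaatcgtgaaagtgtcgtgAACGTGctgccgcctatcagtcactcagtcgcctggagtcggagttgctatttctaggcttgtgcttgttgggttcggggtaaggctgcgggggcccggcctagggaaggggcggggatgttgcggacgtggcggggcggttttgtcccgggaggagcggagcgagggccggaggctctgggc
Lpin2, chr17:71183282-71183581, plus strand: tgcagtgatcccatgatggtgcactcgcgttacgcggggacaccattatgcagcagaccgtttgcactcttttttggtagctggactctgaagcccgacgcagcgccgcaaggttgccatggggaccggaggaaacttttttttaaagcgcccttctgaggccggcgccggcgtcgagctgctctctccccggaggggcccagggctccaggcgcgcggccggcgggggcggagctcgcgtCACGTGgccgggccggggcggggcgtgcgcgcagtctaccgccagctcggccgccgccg

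The table held 17 promoters for 9 of the 10 genes; Pcyt2 is named only. On both strands, 9 elements were searched: the E-box CACGTG and its variant CACGTT, D-box forms TTATGTAA and then TTACGTAA, the REV-ERB or ROR element TAGGTCA, a nuclear receptor direct repeat, the sterol element TCACCCCAC, the cyclic AMP element TGACGTCA and its shorter core TGACG, which lies inside it. CACGTG stood in 7.15% of all 32851 promoters and in 2 of the 17, one of Lpin2 and one of Lpin3. CACGTT stood in 4.68% of all promoters and in 2 of the 17, overlapping windows of Cept1 that share the same match. TCACCCCAC stood in 0.551% of all promoters and in 2 of the 17, overlapping windows of Pcyt1a. The short TGACG stood in 20.8% of all promoters, and it was the only searched element in the Chka promoter, while the Lpin1 promoter held none of them. These are letter matches in 1 window per start site.

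In liver, the kinase gene at the head of the route was lower at ZT12 and the main lipin gene was higher. As measured, Chka was 6.74-fold lower and Lpin1 2.78-fold higher at ZT12 than at ZT0, averaged over the donor diets, and Cept1 was 1.30-fold lower. Of the 10 genes, 7 passed the test in this mean contrast, with Lpin1, Lpin2, Pcyt1a and Chpt1 higher and Chka, Cept1 and Chkb lower. Of all genes, 28.6% passed in the same contrast, 14.1% higher and 14.5% lower. Without quantile normalisation 62.4% of the genes that passed were higher, against 49.3% with it. The median difference was 0.03 over the 10 genes and 0.01 over all genes. Within single donor diets, 3 of 10 passed with HF donors, where 7.81% of all genes did (3.4% higher, 4.41% lower). With KD donors 3 passed (8.67% of all genes, 3.79% higher and 4.88% lower), and with NC donors 4 (9.36%, 4.51% higher and 4.85% lower). Chka, Lpin1 and Cept1 passed with each diet, and Chkb with NC donors.

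**Figure D1:**
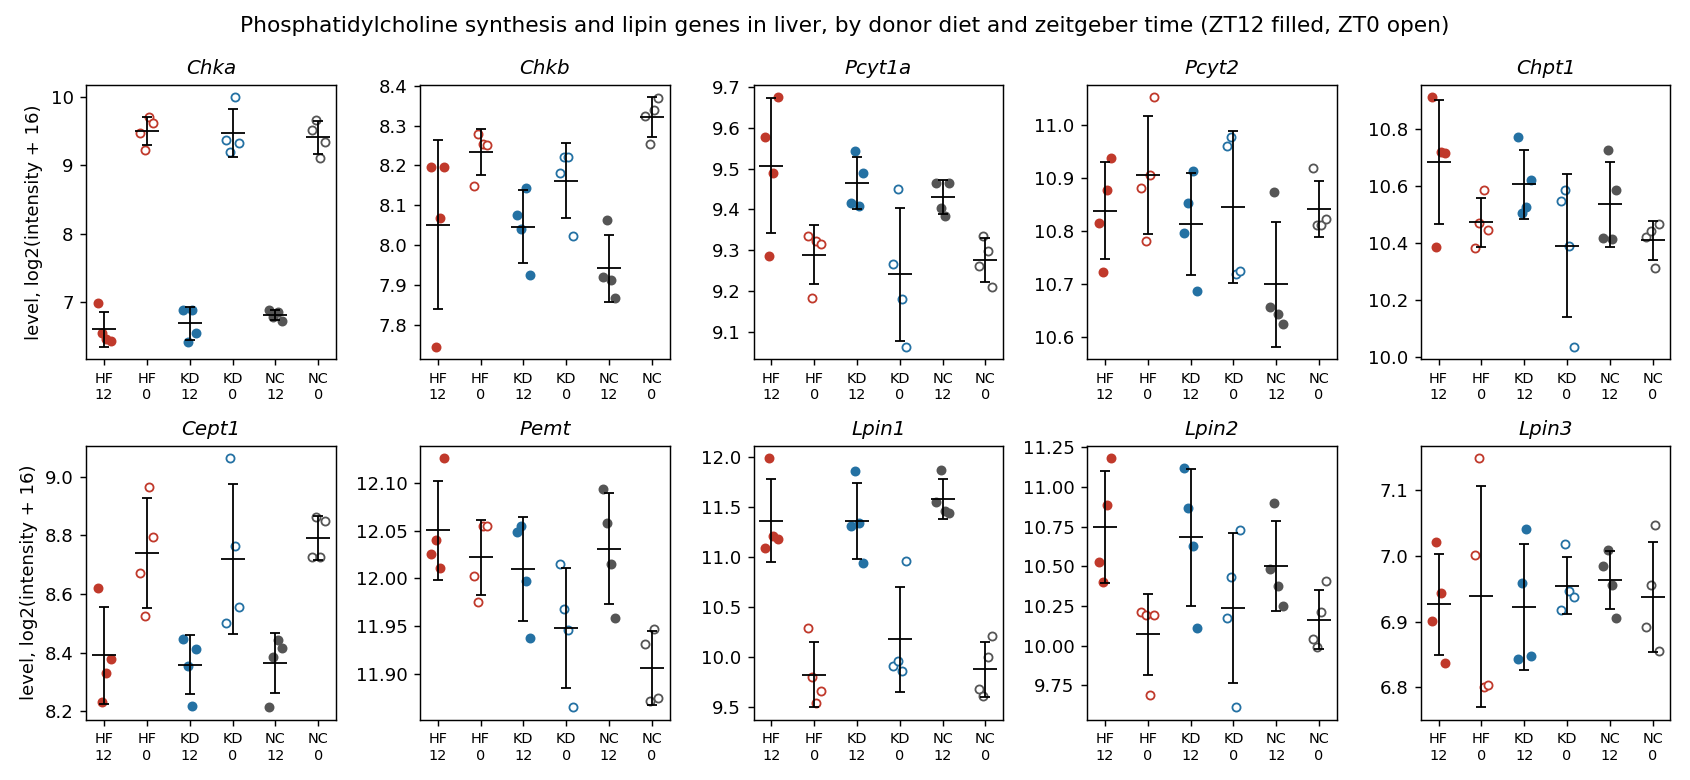
Levels in liver, log2(intensity + 16), of the 10 genes on each array, by donor diet (HF, KD, NC) with ZT12 (filled) left of ZT0 (open); bars are mean and SD of 4 arrays, and each gene has its own axis. Chka at ZT12 lies below every ZT0 array, and Lpin1 at ZT12 lies above all but 1 of them.

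Choline kinase makes phosphocholine, and Chka encodes the alpha form of the enzyme. With HF donors, Chka levels were 6.98, 6.55, 6.47 and 6.43 at ZT12, against 9.47, 9.23, 9.69 and 9.61 at ZT0. With KD donors, they were 6.89, 6.42, 6.89 and 6.56 at ZT12, against 9.37, 9.18, 9.99 and 9.33 at ZT0. With NC donors, they were 6.89, 6.79, 6.86 and 6.72 at ZT12, against 9.51, 9.66, 9.10 and 9.34 at ZT0. All 12 ZT12 arrays were lower than all 12 ZT0 arrays, a separation in that direction that 1.56% of all genes had. The difference averaged over diets was -2.75 ± 0.09 (SE, n = 12 arrays per time, limma adjusted p = 7.1e-17). At ZT12 the lowest intensity was 73.8, where the medians of the liver arrays were 88.2 to 104, so Chka was dim at that time. No detection call was used, so Chka is not shown to lie above background at ZT12, and its fold may understate the change.

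Chkb encodes the beta form, which is best known from muscle. With NC donors its levels were 7.92, 8.06, 7.91 and 7.87 at ZT12, against 8.32, 8.25, 8.34 and 8.37 at ZT0, and those groups did not overlap, as was so for 8.3% of all genes in that direction. That difference was -0.38 ± 0.08 (SE, n = 4 per time, limma adjusted p = 0.0029). With HF and KD donors the differences of Chkb were -0.18 ± 0.08 and -0.12 ± 0.08, which did not pass (adjusted p = 0.18 and 0.44), and the groups overlapped. The mean over diets was -0.23 ± 0.05 (adjusted p = 0.00072). The dimmer Chkb cluster had mean levels of 6.30 ± 0.10 at ZT12 and 6.35 ± 0.15 at ZT0 in liver (SD, n = 12 each).

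Pcyt1a encodes the enzyme that makes CDP-choline, the step usually taken as rate-limiting. Pcyt1a averaged 9.47 at ZT12 and 9.27 at ZT0 over the diets, a difference of 0.20 ± 0.04 (SE, limma adjusted p = 0.0017). Of the 12 ZT12 arrays, 7 were above every ZT0 array. Within the single diets its differences of 0.22 ± 0.08 (HF), 0.22 ± 0.08 (KD) and 0.15 ± 0.08 (NC) did not pass. Pcyt2, the matching enzyme of the ethanolamine route, averaged 10.78 at ZT12 and 10.86 at ZT0 in liver, and its difference of -0.08 ± 0.04 did not pass (adjusted p = 0.19).

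The last step is shared by Chpt1, a cholinephosphotransferase, and Cept1, which accepts both choline and ethanolamine. With HF donors, Cept1 levels were 8.62, 8.23, 8.33 and 8.38 at ZT12, against 8.67, 8.52, 8.97 and 8.79 at ZT0. With KD donors, they were 8.45, 8.35, 8.22 and 8.41 at ZT12, against 8.50, 9.06, 8.76 and 8.56 at ZT0. With NC donors, they were 8.21, 8.39, 8.44 and 8.42 at ZT12, against 8.73, 8.86, 8.73 and 8.85 at ZT0. Only HF ZT12 replicate 10, at 8.62, reached into the range of the ZT0 arrays. The differences were -0.35 ± 0.11 with HF donors (limma adjusted p = 0.048), -0.36 ± 0.11 with KD donors (0.036) and -0.43 ± 0.11 with NC donors (0.012), and -0.38 ± 0.06 in the mean (adjusted p = 5.6e-05). The call with HF donors was lost when any 1 of 18 of the 24 arrays was left out, with adjusted p up to 0.165 (without HF ZT0 replicate 4). That with KD donors was lost without KD ZT0 replicate 3 (0.155) or 5 (0.0738), or without KD ZT12 replicate 8 (0.0574), 12 (0.0800) or 13 (0.115). That with NC donors was lost without NC ZT12 replicate 11 (0.0541).

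Chpt1 moved the other way. It averaged 10.61 at ZT12 and 10.42 at ZT0, and the difference of 0.18 ± 0.06 passed in the mean over diets (limma adjusted p = 0.030) and with no single diet. This call was lost without HF ZT0 replicate 2, NC ZT0 replicate 5, HF ZT12 replicate 10, KD ZT12 replicate 10 or NC ZT12 replicate 13, with adjusted p of 0.0510 to 0.0600, and without quantile normalisation (0.0521). Without KD ZT0 replicate 7, the liver array that stood apart, the mean difference was 0.15 (limma adjusted p = 0.0427). The methyltransferase gene Pemt had intensities of 3466 to 4499 over the 24 liver arrays, and its difference of 0.07 ± 0.03 did not pass (adjusted p = 0.077).

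Among the lipins, Lpin1 carried the largest difference in liver. With HF donors, Lpin1 levels were 11.08, 11.99, 11.20 and 11.17 at ZT12, against 10.29, 9.80, 9.54 and 9.66 at ZT0. With KD donors, they were 11.30, 11.86, 11.34 and 10.94 at ZT12, against 9.91, 9.96, 9.86 and 10.96 at ZT0. With NC donors, they were 11.55, 11.86, 11.46 and 11.43 at ZT12, against 9.68, 9.61, 9.99 and 10.21 at ZT0. The times overlapped through KD ZT0 replicate 7 alone, the array that stood apart, whose 10.96 was just above the 10.94 of KD ZT12 replicate 8. The differences were 1.54 ± 0.23 with HF donors (limma adjusted p = 0.00011), 1.19 ± 0.23 with KD donors (0.0017) and 1.70 ± 0.23 with NC donors (2.5e-05), and 1.48 ± 0.13 in the mean (adjusted p = 1.2e-08). Without KD ZT0 replicate 7 the difference was 1.45 with KD donors and 1.56 in the mean.

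Lpin2, the other main hepatic lipin, had a smaller difference in the same direction. Its levels averaged 10.64 at ZT12 and 10.16 at ZT0, and the difference of 0.49 ± 0.13 passed in the mean (limma adjusted p = 0.0052). With single diets it was 0.68 ± 0.22 (HF, adjusted p = 0.057), 0.44 ± 0.22 (KD, 0.24) and 0.34 ± 0.22 (NC, 0.39). Without KD ZT0 replicate 7 the difference was 0.61 with KD donors and 0.54 in the mean. Lpin3 was dim in liver, with intensities of 91.6 to 122, and averaged 6.94 at both times, a difference of -0.01 ± 0.04 (95% interval -0.09 to 0.08).

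Liver markers also moved with time. Of 4 sinusoidal endothelial markers, 3 were lower at ZT12, with a median difference of -0.25 and summed intensities of 1610 to 2171 at ZT12 and 1909 to 2795 at ZT0. Kupffer cell markers were lower in 2 of 4, stellate cell markers in 3 of 5 and smooth muscle markers in 2 of 5. Exocrine pancreas markers were higher in 3 of 5 and skeletal muscle markers in 2 of 4. The exocrine pancreas sums over 5 genes were only 315 to 454, where array medians were 88.2 to 104. Those markers are not shown to lie above background. The hepatocyte list had 1 of 6 higher and none lower, with sums of 67912 to 72493 at ZT12 and 57322 to 68304 at ZT0. Their part in the results was not tested.

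**Figure D2:**
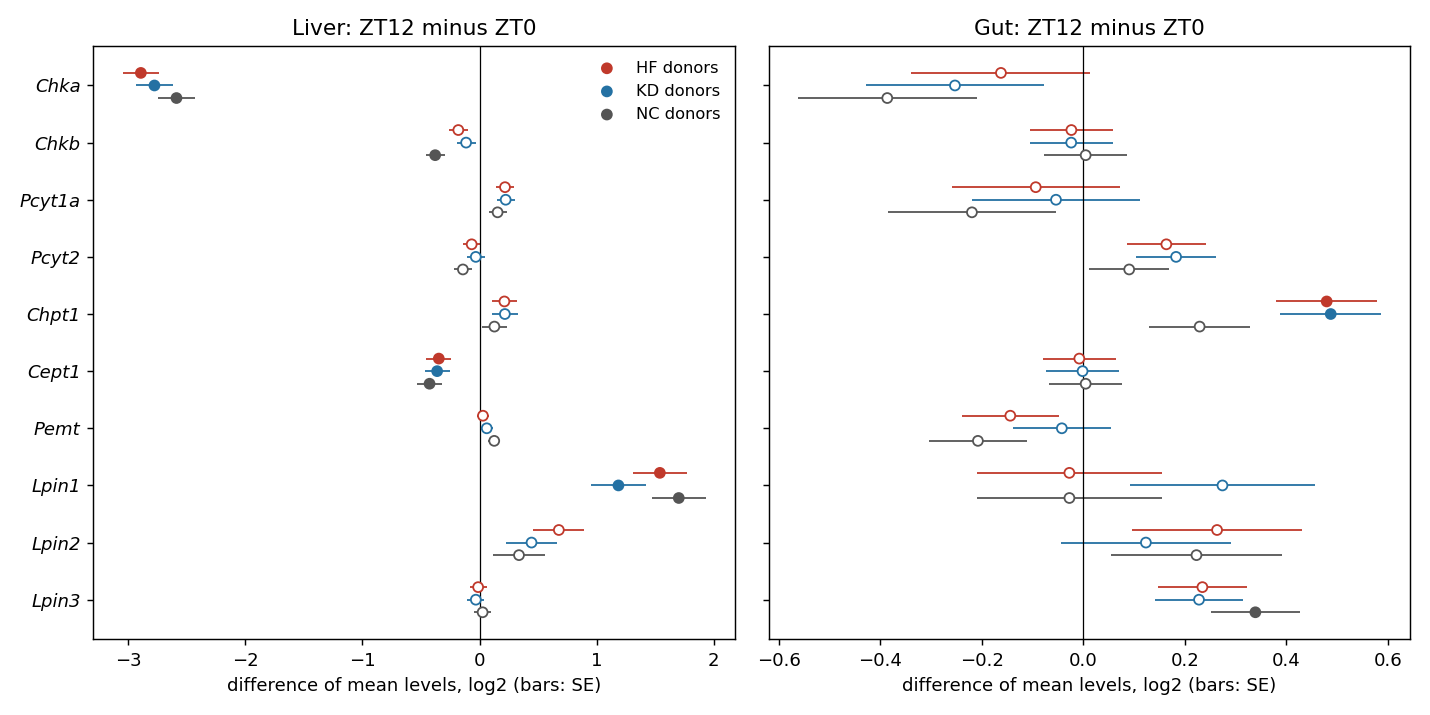
Difference of mean levels between ZT12 and ZT0 (log2, with SE) for each gene with HF, KD and NC donors, in liver and in gut; filled points passed the test, and the axes differ in scale. In liver, Chka lies between -2.89 and -2.59 and Lpin1 between 1.19 and 1.70, while no gut value exceeds 0.49 in size.

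In gut, the differences with time were smaller than those of Chka and Lpin1 in liver. In the mean over diets 3 of the 10 passed, all higher at ZT12: Chpt1, Lpin3 and Pcyt2. Of all genes, 20.9% passed in this contrast, 11.1% higher and 9.79% lower. The median difference was 0.04 over the 10 genes, and less than 0.01 in size over all genes. Within single diets 1 of 10 passed with each: Chpt1 with HF donors (3.22% of all genes passed, 1.81% higher) and with KD donors (4.12%, 2.45% higher), and Lpin3 with NC donors (2.36%, 1.31% higher). Chpt1 had passed in the same direction in liver, and Lpin3 and Pcyt2 had not passed there.

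**Figure D3:**
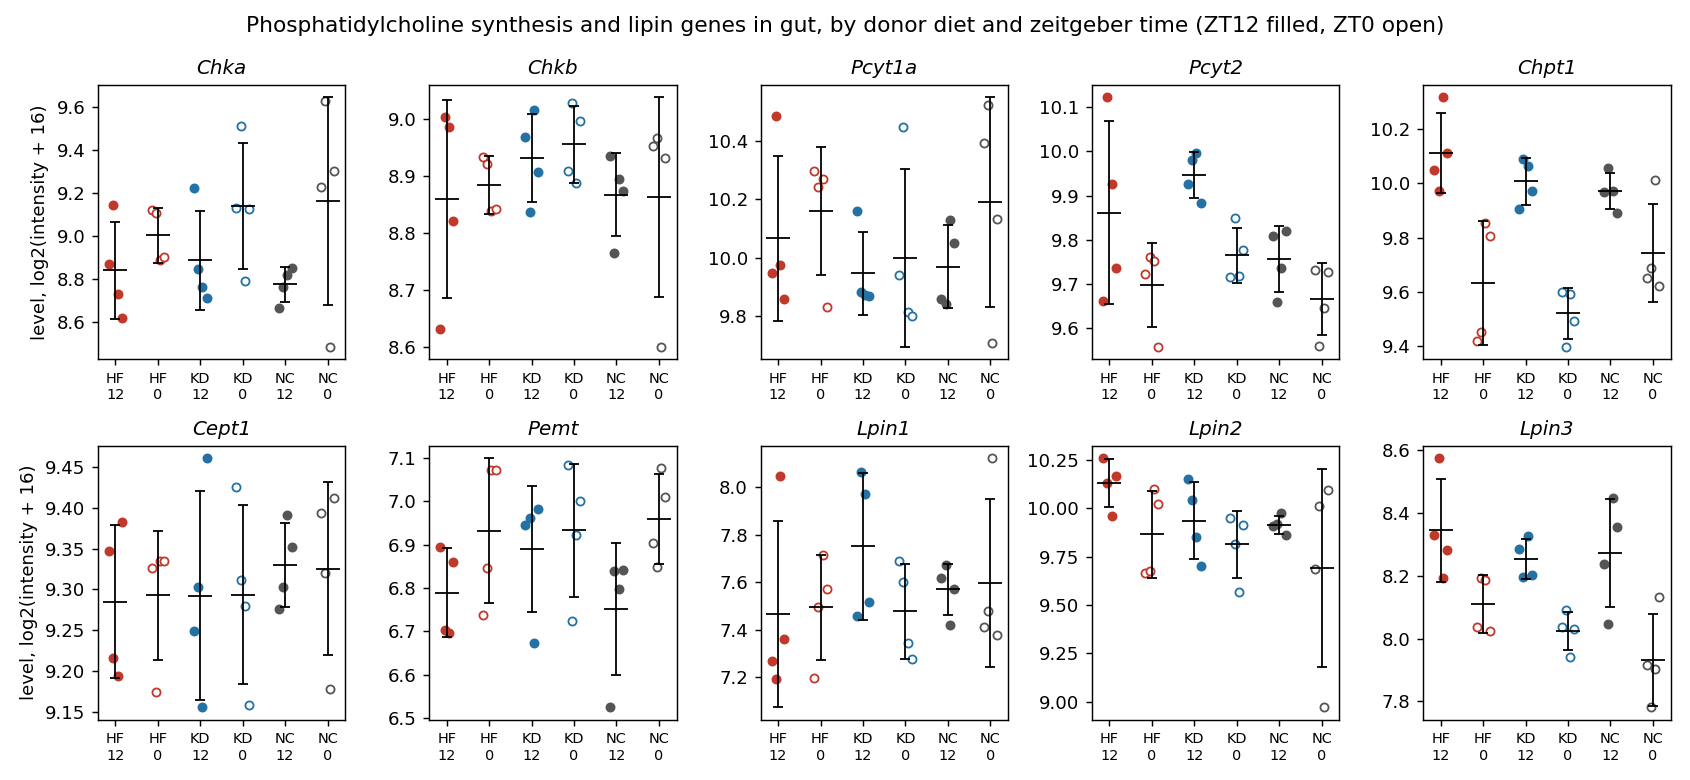
Levels in gut, log2(intensity + 16), of the 10 genes on each array, by donor diet (HF, KD, NC) with ZT12 (filled) left of ZT0 (open); bars are mean and SD of 4 arrays. Chpt1 and Lpin3 are higher at ZT12, and NC ZT0 replicate 4 lies apart for Chka (8.49) and Lpin2 (8.97).

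Chpt1 in gut had levels of 10.05, 9.97, 10.32 and 10.11 at ZT12 with HF donors, against 9.42, 9.45, 9.85 and 9.81 at ZT0. With KD donors it had 9.90, 10.09, 10.06 and 9.97 at ZT12, against 9.60, 9.40, 9.59 and 9.49 at ZT0. With NC donors it had 9.97, 10.06, 9.97 and 9.89 at ZT12, against 9.65, 9.69, 10.01 and 9.62 at ZT0. Within HF and KD donors the times did not overlap, as was so for 6.34% and 6.89% of all genes in that direction, and within NC donors replicate 4, the array that stood apart, reached 10.01 at ZT0. The differences were 0.48 ± 0.10 with HF donors (limma adjusted p = 0.0081, and 0.0905 with only the groups compared), 0.49 ± 0.10 with KD donors (0.0069) and 0.23 ± 0.10 with NC donors (0.28). In the mean the difference was 0.40 ± 0.06 (adjusted p = 3.8e-05), and 0.43 without that array.

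Lpin3 in gut had levels of 8.33, 8.57, 8.19 and 8.28 at ZT12 with HF donors, against 8.04, 8.19, 8.19 and 8.03 at ZT0. With KD donors it had 8.29, 8.20, 8.32 and 8.20 at ZT12, against 8.04, 8.09, 7.94 and 8.03 at ZT0. With NC donors it had 8.24, 8.05, 8.45 and 8.36 at ZT12, against 7.91, 7.78, 7.90 and 8.13 at ZT0. Of the 12 ZT12 arrays, 11 were above every ZT0 array. The mean difference was 0.27 ± 0.05 (SE, limma adjusted p = 0.00071), made of 0.23 ± 0.09 (HF), 0.23 ± 0.09 (KD) and 0.34 ± 0.09 (NC, adjusted p = 0.040). The call with NC donors was lost when 1 of 7 arrays was left out: KD ZT0 replicate 6 (adjusted p = 0.0506), NC ZT0 replicate 1 (0.0681), 3 (0.110) or 4 (0.0952), or NC ZT12 replicate 9 (0.111), 10 (0.0735) or 12 (0.145).

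Pcyt2 averaged 9.85 at ZT12 and 9.71 at ZT0 in gut, a difference of 0.15 ± 0.05 (SE, limma adjusted p = 0.025), which did not pass without quantile normalisation (0.0828). Chka, whose liver difference was so wide, averaged 8.84 at ZT12 and 9.10 at ZT0 in gut, and the difference of -0.27 ± 0.10 did not pass (adjusted p = 0.065). It passed without NC ZT0 replicate 4 (-0.34, adjusted p = 0.0050), and also without KD ZT0 replicate 5 (0.0348), HF ZT12 replicate 12 (0.0438) or KD ZT12 replicate 10 (0.0395). Because NC ZT0 replicate 4 was the lowest ZT0 array for Chka, leaving it out must make this difference more negative. With NC donors alone, Chka had a difference of -0.39 ± 0.18 (adjusted p = 0.30), and -0.61 without that ZT0 replicate 4 (0.0326). Lpin1 in gut averaged 7.60 at ZT12 and 7.52 at ZT0, a difference of 0.07 ± 0.10 (95% interval -0.14 to 0.29), and of 0.13 without NC ZT0 replicate 4. For Cept1 the interval was -0.09 to 0.08, for Chkb -0.11 to 0.08, for Pcyt1a -0.32 to 0.08 and for Lpin2 0.00 to 0.40. Without that array the difference was 0.12 for Lpin2, against 0.20 with it, and -0.04 for Chkb. Pemt was near the dim end of its range there, with intensities of 72.7 to 118, and its difference of -0.13 ± 0.06 did not pass, except without KD ZT0 replicate 4 (-0.15, adjusted p = 0.0499).

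In gut, 3 of 8 enterocyte markers were higher at ZT12, with sums of 45732 to 55969 at ZT12 and 38256 to 51685 at ZT0. Skeletal muscle markers and Kupffer cell markers were each higher in 2 of 4, and 2 of 6 genes of the hepatocyte list were lower. The Kupffer cell sums over 4 genes were 318 to 433, where array medians were 125 to 136, so those markers are not shown to lie above background. Whether these shifts bear on the gut differences was not tested.

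The tissues were then set side by side after all 48 arrays had been quantile normalised together, which gives a scale of its own. At ZT12, 9 of the 10 genes differed between liver and gut, and at ZT0 all 10, where 78.5% and 78.6% of all genes did. As measured, Pemt was higher in liver than in gut by 5.46 ± 0.04 at ZT12 and by 5.26 ± 0.04 at ZT0 (SE, n = 12 arrays per tissue and time). Pemt lay below the array medians (125 to 136) on the gut arrays and is not shown to lie above background there, so its differences may understate the gap. Lpin1 was higher in liver by 4.14 ± 0.12 at ZT12 and by 2.78 ± 0.12 at ZT0. Smaller liver excesses, at ZT12 and ZT0 in that order, were 1.30 and 1.54 for Pcyt2, 0.93 and 1.15 for Chpt1, and 1.0 and 0.73 for Lpin2. Each of these genes was higher in liver at both times.

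Chka changed its order with time. On the common scale it averaged 6.87 ± 0.21 in liver and 8.62 ± 0.18 in gut at ZT12, but 9.65 ± 0.24 in liver and 8.89 ± 0.31 in gut at ZT0 (SD, n = 12 each). Liver minus gut was -1.75 ± 0.10 at ZT12 (limma adjusted p = 4.9e-20) and 0.76 ± 0.10 at ZT0 (5.1e-09). Lower in liver were Lpin3 (-0.98 at ZT12, -0.72 at ZT0), Cept1 (-0.51, -0.13), Chkb (-0.45, -0.23) and Pcyt1a (-0.15, which did not pass, and -0.47). The ZT0 call of Cept1 was lost without liver HF ZT0 replicate 3 (adjusted p = 0.0585), liver KD ZT0 replicate 1 (0.0593) or liver KD ZT0 replicate 7 (0.0505). The median over all genes was 0.04 at each time. Without quantile normalisation it was -0.25 at ZT12 and -0.28 at ZT0, and of the genes that passed 23.0% and 21.1% were higher in liver at those times, against 54.7% and 54.3% with it. The direction of each of the 10 genes was the same without it, and Pcyt1a then passed at ZT12 too (-0.52).

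The difference between the tissues' time effects was itself tested. ZT12 minus ZT0 in liver minus that in gut passed for 8 of the 10 genes, where 17.8% of all genes passed, 8.75% higher and 9.05% lower. Of the genes that passed, 49.1% were higher, and 59.3% without quantile normalisation. It was -2.51 ± 0.14 for Chka (limma adjusted p = 1.2e-17), made of -2.78 in liver and -0.27 in gut. For Lpin1 it was 1.36 ± 0.17 (7.8e-08), made of 1.44 in liver and 0.07 in gut. Cept1 followed with -0.37 ± 0.08 (0.00031). The others were Pcyt1a at 0.32 ± 0.11 (0.043), Pemt at 0.20 ± 0.06 (0.017), Lpin3 at -0.26 ± 0.06 (0.0026, and 0.0503 without quantile normalisation), Pcyt2 at -0.24 ± 0.06 (0.0074) and Chkb at -0.22 ± 0.07 (0.017). The call of Pcyt1a was lost without any 1 of 24 of the 48 arrays, with adjusted p up to 0.0752. Chpt1 (-0.22 ± 0.09, 0.083) did not pass with all arrays, and passed without gut HF ZT0 replicate 4 (0.0491), gut NC ZT0 replicate 4 (0.0386), liver KD ZT0 replicate 7 (0.0221) or liver HF ZT12 replicate 10 (0.0473). Lpin2 (0.27 ± 0.17, 0.30) did not pass.

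The donor diet, the question that the transplants were set up to ask, moved none of the 10 genes past the threshold. All pairs of HF, KD and NC donors were compared at each time and in the mean of both, in each tissue. In these 18 donor comparisons limma called 0 of the 10, and over all genes it called 0% or 0.00483% in each. The comparisons share groups, so they are not independent. At an unadjusted p below 0.05 (limma), Pemt was higher in liver with HF than with NC donors at ZT0 (0.12). Of all 20718 genes, 1047 reached that p there. In gut with KD against NC donors, Chpt1 was lower at ZT0 (-0.22, and -0.13 without NC ZT0 replicate 4), and Pcyt2 was higher at ZT12 (0.19) and in the mean of both times (0.15). Of all genes, 776 reached that p there at ZT0, 2020 at ZT12 and 1533 in the mean.

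A difference that did not pass is bounded by its 95% interval. Across the donor comparisons at single times, the intervals of Chka ran between -0.53 and 0.42 in liver and between -0.52 and 0.48 in gut. The lower gut bound of Chka belongs to HF minus NC donors at ZT0 (-0.16), which was -0.38 without NC ZT0 replicate 4. Those of Lpin1 were wider, -0.83 to 0.78 in liver and -0.66 to 0.56 in gut. The liver bounds of Lpin1 belong to HF minus KD donors at ZT0 (-0.35) and KD minus NC donors at ZT0 (0.30), which were -0.09 and 0.04 without KD ZT0 replicate 7. Those of Pemt in liver were narrow, -0.13 to 0.22, and those of Cept1 in gut ran between -0.20 and 0.15.

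**Figure D4:**
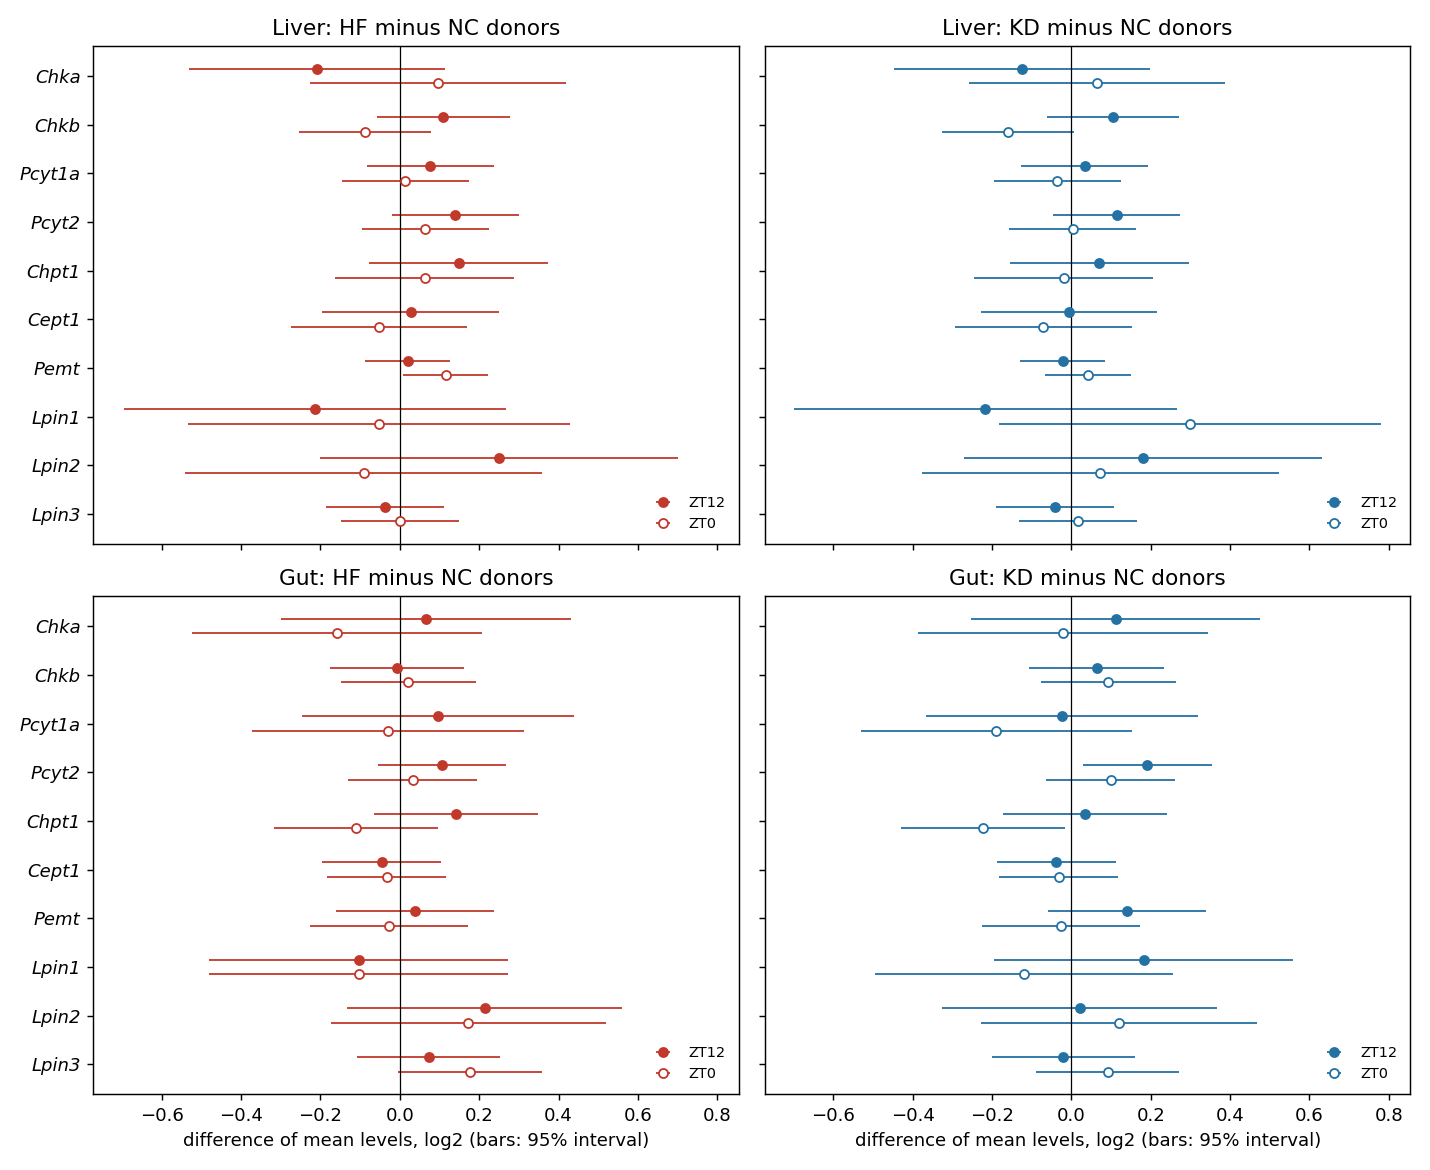
Difference of mean levels (log2, with 95% interval) between HF and NC donors and between KD and NC donors, for each gene at ZT12 (filled) and ZT0 (open), in liver and in gut. The intervals span 0, except those of Pemt in liver with HF donors at ZT0 (0.12) and, in gut with KD donors, of Pcyt2 at ZT12 (0.19) and Chpt1 at ZT0 (-0.22).

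The time effect was also compared between donor diets directly, and 0 of the 10 genes passed in any of 6 such contrasts, where 0% of all genes did. For Chka in liver, the change with HF donors minus that with NC donors was -0.30. For Lpin1 in liver, the change with KD donors minus that with NC donors was -0.52, and -0.25 without KD ZT0 replicate 7. Chkb was the only gene of the 10 with an unadjusted p below 0.05 (limma) here. Its value was 0.26 for KD minus NC donors in liver, and 0.22 without KD ZT0 replicate 7. Of all 20718 genes, 866 reached that p in this contrast. The authors' deposited tables hold a ratio of group means and a p-value for 8 of these comparisons. In the authors' deposited tables the ratios of the 10 genes lay between 0.843 and 1.27, and none passed after their p-values were adjusted again by Benjamini-Hochberg, with 0 or 1 of the 10 per table at an unadjusted p below 0.05.

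Around the route, genes of neighbouring steps were grouped in 8 lists, 78 genes in all. With HF, KD and NC donors compared in either tissue, none of them passed in any of the 18 donor comparisons. An unadjusted p below 0.05 (limma) was reached by 0 to 7 of the 78, and by 462 to 2050 of all 20718 genes. The 7 were in gut with KD against NC donors in the mean of both times, where 1533 of all genes reached it. Between the times, Gpcpd1 in liver (2.23) differed by more than Lpin1 (1.48), and the other listed genes that are named had liver differences of at most 0.89 in size. Given are counts in the mean over diets, beside the 14.1% higher and 14.5% lower of all genes in liver, and 11.1% and 9.79% in gut.

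**Figure D5:**
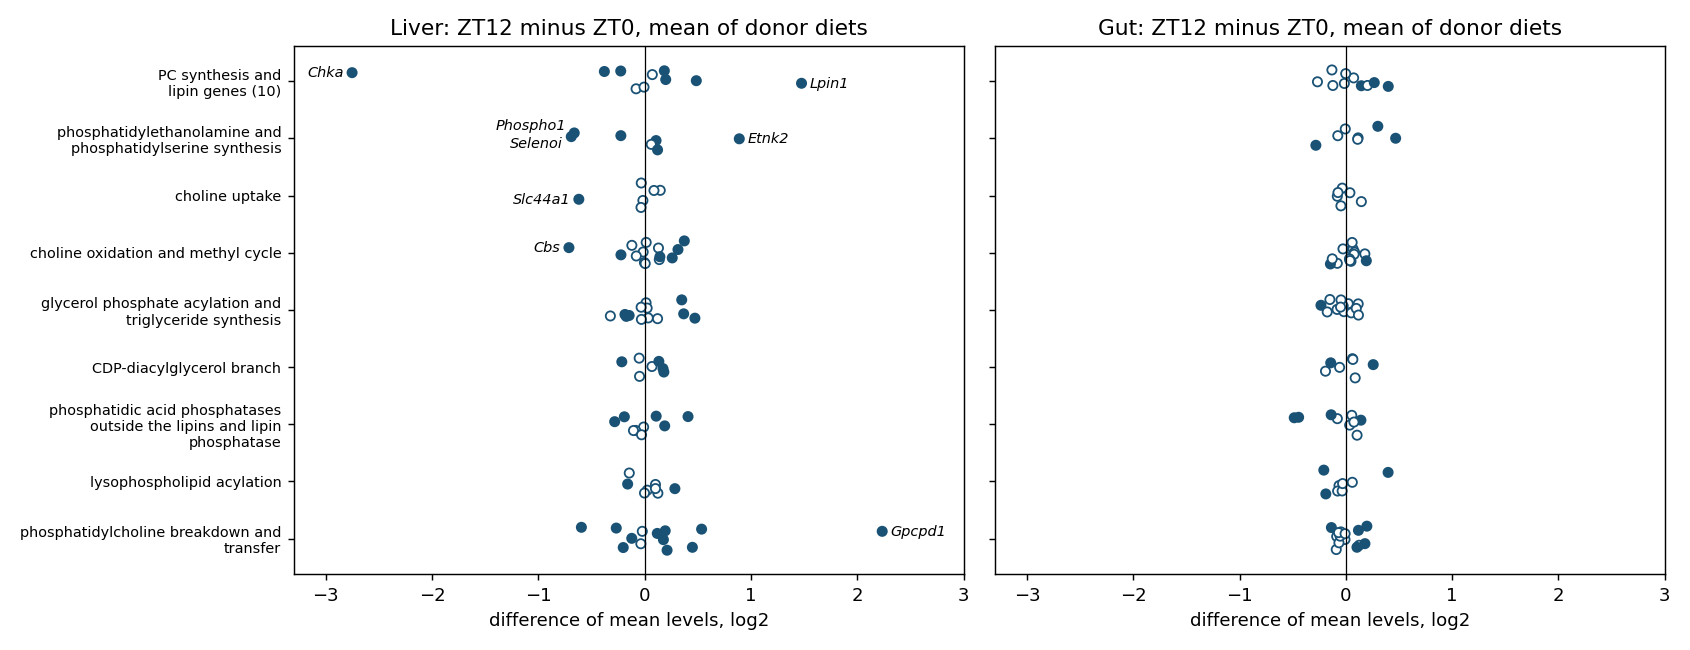
Difference of mean levels between ZT12 and ZT0 (log2, mean of donor diets) for the 10 genes and for 8 lists of neighbouring steps, in liver and in gut; each point is a gene, filled where it passed the test. In liver, Chka (-2.75) lies farthest to the left and Gpcpd1 (2.23) farthest to the right of the genes shown.

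Breakdown and transfer of phosphatidylcholine had 7 of 14 genes higher and 4 lower in liver, with a median of 0.14. Gpcpd1, a glycerophosphocholine phosphodiesterase that releases choline at the end of the breakdown route, had levels of 10.05 to 10.81 (median 10.32) at ZT12 and 7.48 to 8.85 (median 8.18) at ZT0. Its times did not overlap, as was so for 1.31% of all genes in that direction, and the difference was 2.23 ± 0.13 (SE, limma adjusted p = 7.5e-12), with 2.39 for HF, 2.22 for KD and 2.09 for NC donors. Gpcpd1, on the way out of phosphatidylcholine, was higher at ZT12 in the same livers in which Chka, on the way in, was lower. Neither side moved as a whole. On the way in, Cept1 and Chkb were also lower, but Pcyt1a and Chpt1 were higher, and breakdown genes went both ways. Gde1, another glycerophosphodiesterase, was higher by 0.54 ± 0.05, while Pld1, a phospholipase D, was lower by -0.60 ± 0.06 and Pnpla6, a lysophospholipase, by -0.27 ± 0.05. In gut, 4 of 14 were higher and 1 lower.

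Choline uptake had 1 of 6 measured genes lower and none higher in liver. That was Slc44a1, a choline transporter, with levels of 8.51 to 8.79 at ZT12 and 8.97 to 9.42 at ZT0. The times did not overlap, as was so for 1.56% of all genes in that direction, and the difference was -0.62 ± 0.05 (SE, limma adjusted p = 1.5e-09). In gut none of the 6 passed, and Slc44a1 had 10.61 to 10.86 at ZT12 and 10.59 to 10.92 at ZT0.

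Phosphatidylethanolamine and phosphatidylserine synthesis had 3 of 7 higher and 3 lower in liver. Etnk2, an ethanolamine kinase, had levels of 10.74 to 11.26 at ZT12 and 9.74 to 10.52 at ZT0, a difference of 0.89 ± 0.09 (SE, limma adjusted p = 4.3e-08). Those levels did not overlap, as was so for 1.31% of all genes in that direction. Etnk1, the other ethanolamine kinase, was lower in liver by -0.22 ± 0.04 and higher in gut by 0.47 ± 0.05, where its 9.42 to 9.81 at ZT12 did not overlap with 8.88 to 9.26 at ZT0 (0.7% of all genes in that direction). Selenoi, the ethanolamine phosphotransferase (Ept1 in the files), had 8.83 to 9.07 at ZT12 and 9.32 to 9.81 at ZT0 in liver. That is a difference of -0.69 ± 0.05 (limma adjusted p = 2.0e-10), in the direction of Cept1, which acts at the same step. Phospho1, a phosphatase of phosphocholine and phosphoethanolamine, differed by -0.66 ± 0.09 in liver and by 0.30 ± 0.10 in gut, where its call was lost under 9 of 30 alternatives (limma adjusted p up to 0.0646). In liver Phospho1 was dim, with mean levels of 6.01 at ZT12 and 6.67 at ZT0, and is not shown to lie above background. In gut 2 of the 7 were higher and 1, Ptdss1 (-0.28 ± 0.06), a phosphatidylserine synthase, was lower.

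Choline oxidation and the methyl cycle, which supplies the methyl groups that Pemt uses, had 4 of 14 higher and 2 lower in liver. Cbs, which draws homocysteine out of the cycle, had 10.51 to 10.89 at ZT12 and 11.22 to 11.61 at ZT0, a difference of -0.71 ± 0.05 (limma adjusted p = 9.9e-11). Sardh, a sarcosine dehydrogenase, was higher by 0.37 ± 0.06, and the S-adenosylmethionine synthetases Mat1a and Mat2a were higher by 0.26 ± 0.04 and 0.31 ± 0.07. In gut 1 of 14 was higher (Cbs, 0.19 ± 0.05) and 1 lower (Ahcy, -0.15 ± 0.05). The Ahcy call was lost under 20 of 30 alternatives, with adjusted p up to 0.0850 (limma).

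Upstream of the lipins, glycerol phosphate acylation and triglyceride synthesis had 3 of 13 higher and 3 lower in liver. Gpat4 (Agpat6 in the files), a glycerol phosphate acyltransferase, was higher by 0.47 ± 0.05, Agpat1, which makes phosphatidate, by 0.37 ± 0.05, and Dgat2, which makes triglyceride, by 0.35 ± 0.04. Agpat2, another enzyme that makes phosphatidate, was lower by -0.19 ± 0.04 in liver and by -0.23 ± 0.05 in gut, where it alone of the 13 passed. A further list joined phosphatidate phosphatases outside the lipins with Ctdnep1 and Cnep1r1, of the phosphatase that acts on lipins. In liver 3 of these 9 genes were higher, with Plpp3 at 0.41 ± 0.07. The 2 lower were Plpp1 (-0.28 ± 0.06) and Cnep1r1 (-0.19 ± 0.05). In gut 1 of the 9 was higher and 3 were lower: Plpp5 (-0.44 ± 0.04), Plpp1 (-0.49 ± 0.16) and Ctdnep1 (-0.14 ± 0.04). The Plpp1 call in gut was lost under 10 of 30 alternatives (limma adjusted p up to 0.0597).

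The CDP-diacylglycerol branch had 3 of 7 higher and 1 lower in liver, and 1 of each in gut, with Cdipt, the phosphatidylinositol synthase, at 0.18 ± 0.04 in liver and 0.26 ± 0.04 in gut. Lysophospholipid acylation had 1 of 8 higher (Lpgat1, 0.28 ± 0.06) and 1 lower (Mboat1, -0.16 ± 0.05) in liver, the last not without quantile normalisation (-0.08, limma adjusted p = 0.316). In gut it had 1 higher (Lpcat4, 0.40 ± 0.13) and 2 lower (Mboat7, -0.21 ± 0.05, and Lpcat3, -0.19 ± 0.05), the last a main acyltransferase for phosphatidylcholine in intestine. The Lpcat4 call was lost under 10 of 30 alternatives (limma adjusted p up to 0.0664).

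For the genes that passed with every donor diet in liver, those with the most similar pattern were sought over the 24 liver arrays, by the smallest root mean square difference of centred levels. For Chka they were Tubb2a (0.354), Arntl (0.380) and Spon2 (0.414), against a root mean square of 1.39 for Chka itself. For Lpin1 they were Arhgef26 (0.301), Klf13 (0.313) and St3gal5 (0.325), against 0.815 for Lpin1 itself. For Cept1 they were Mpp6 (0.0896), Slc39a8 (0.0994) and Nt5e (0.103), against 0.236 for Cept1 itself.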

How the data were processed

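The deposited value table holds, per the file headers, a linear intensity for each of 35556 transcript clusters on each of 48 arrays. Per the submitters' processing notes the authors computed it with PLIER, with no stated version or between-array scaling. The 8 comparison tables deposited by the authors repeat these intensity values for 23811 clusters that have a symbol (tolerance 0.001). They add, per the file headers, a p-value and a ratio of group means per cluster, from a test that no source used here names. Symbols are those of the files. Each gene was read from its brightest cluster in the tissue, for 20718 genes. Array medians were 88.2 to 104 intensity units in liver and 125 to 136 in gut.

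From the intensities, log2(intensity + 16) was put through quantile normalisation per tissue. The 6 groups of a tissue were fitted with limma 3.58.1 (R 4.3.3), which leaves 18 residual degrees of freedom for its moderated two-sided test, with Benjamini-Hochberg adjustment over all genes and a threshold of 0.05. The 4 arrays of a group limit the precision. The tissues were compared in 1 fit of all 48 arrays. The fit was tested on simulated data. Promoter sequences were read from a RefSeq table.

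The 10 genes and the lists were chosen with earlier results of these data known. Named besides the 10 are, of each list and tissue, up to 4 genes that passed the test of ZT12 against ZT0 with the smallest p-values, the 3 genes with the most similar pattern, and the clock genes Dbp, Per3, Nr1d1 and Arntl. Titles give 33 mouse codes, 15 of them in both tissues; deviations of arrays that share a code had a mean correlation of 0.018, with 2 of 15 over 0.1. Tried as alternatives were array weights, an offset of 1, an intensity trend, each array left out, only the groups compared, all clusters singly, no quantile step, the dim genes left out, and replicate blocks.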

Additional observations from a re-analysis of the deposited data

Results flagged for a closer look

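Of 120 groups of 4 arrays (10 genes by 12 groups), 14 held an array whose gap to its nearest neighbour was wider, as a share of the group's range, than Dixon's 95% critical value, and chance gives about 5% of groups. In liver the high arrays were NC ZT12 replicate 13 (10.87) and NC ZT0 replicate 1 (10.92) for Pcyt2, and HF ZT12 replicate 13 (11.99) and KD ZT0 replicate 7 (10.96) for Lpin1. The low liver arrays were HF ZT0 replicate 3 for Pcyt1a (9.18) and HF ZT0 replicate 4 for Lpin2 (9.69). In gut, NC ZT0 replicate 4 was high for Chpt1 (10.01) and Lpin1 (8.12) and low for Chkb (8.60). Also in gut, Pemt was low on KD ZT12 replicate 13 (6.67) and on NC ZT12 replicate 10 (6.52). Pcyt1a was high on gut KD ZT12 replicate 10 (10.16) and low on gut HF ZT0 replicate 5 (9.83), and Cept1 was low on gut HF ZT0 replicate 2 (9.17).

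The change with time (ZT12 minus ZT0) differed between liver and gut, by its own test, for 8 genes, where 17.8% of all genes passed. Liver minus gut, it was -2.51 for Chka, 1.36 for Lpin1, -0.37 for Cept1, 0.32 for Pcyt1a, -0.26 for Lpin3, -0.24 for Pcyt2, -0.22 for Chkb and 0.20 for Pemt. Many single arrays, when left out, cost Pcyt1a its call (limma adjusted p up to 0.0752). Lpin3 lost its call without quantile normalisation (0.0503).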

How the results depend on the processing

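Of 350 differences of the 10 genes, 50 passed the test, 40 of these passed under every alternative, and 0 of the 50 changed direction. Another 9 that did not pass did so under some alternative. The 50 pool contrasts that share arrays. Of them, 10 and 9 are liver against gut at ZT0 and ZT12, where 78.6% and 78.5% of all genes passed. A further 8 are the time effect between tissues (17.8% of all genes). With NC donors in gut, 0 genes passed with no quantile step, with array weights or with only the groups compared, against 1; with HF donors in gut, 0 passed with only the groups compared, against 1. With 1 array left out, the count with NC donors in gut was 0 to 1. In liver the counts were then 2 to 4 with HF donors, 2 to 4 with KD donors, 3 to 4 with NC donors and 6 to 7 in the mean, and in gut 3 to 4 in the mean. For liver against gut they were 9 at ZT12 and 9 to 10 at ZT0, and 7 to 9 for the time effect. In liver, Lpin2 with HF donors (adjusted p = 0.057) passed with array weights (0.0235), with only the groups compared (0.0306), with no dim genes (0.0466), and without KD ZT0 replicate 5 (0.0335) or 7 (0.0358), HF ZT12 replicate 13 (0.0460) or KD ZT12 replicate 8 (0.0396) or 10 (0.0494). Pcyt1a passed with HF and with KD donors without HF ZT12 replicate 13 (0.0217 and 0.0481), and with KD donors without KD ZT0 replicate 3 (0.0188). Chka in gut passed in the mean with no quantile step (0.0300) and with array weights (0.0128), and Pemt in liver with no quantile step (0.0313). With only the groups compared, Cept1 in liver did not pass with HF donors (0.0717) or with KD donors (0.138). No paired analysis was possible for the times because ZT12 and ZT0 share fewer than 2 replicate numbers within a donor diet. With the replicate block, donor comparisons called 0 of the 10, as without it, and a block for the mouse code left 9 (ZT12), 10 (ZT0) and 8 (time effect) genes between the tissues. Arrays that share a number had deviations with a mean correlation of -0.073 in liver (12 pairs) and 0.0015 in gut (16 pairs). Of 54 time differences of named genes outside the 10, counted per tissue, 45 passed under every alternative. The 54 include the clock genes Dbp, Per3, Nr1d1 and Arntl in both tissues, all of which passed under every alternative. Those that did not were all from the lists: Ahcy, Crls1, Gdpd1, Lpcat4, Lypla1, Phospho1, Pld1 and Plpp1 in gut and Mboat1 in liver. Signal limits what can be read of Chka at ZT12 and Lpin3 in liver and of Pemt in gut, whose intensities lay near or below the array medians. It also limits Phospho1 and Mboat1 in liver, whose mean levels at both times were below the 6.70 of Chka at ZT12.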
